A study of Homo sapiens with 6 samples.

Results

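The mitochondrial ribosomal protein genes on the array were taken as every probe whose gene name reads MRPL or MRPS followed by a number and, at most, the letter A, B or C. This rule gave 107 probes for 76 genes, of 41000 probes on the array, with 70 probes for 47 MRPL genes (named for the large subunit) and 37 probes for 29 MRPS genes (named for the small subunit). No measured value entered the rule, but the members were chosen with earlier results of these data known. RNA came from RH36 cells, a human embryonal rhabdomyosarcoma line without the PAX3/FOXO1 translocation. A transient transfection had given them either pre-miR-27a, a synthetic precursor that raises miR-27a, or the negative control precursor, called pre-control, and each group had 3 arrays numbered 1 to 3. The labels give 10 nM of precursor, a check of the miRNA 24 hours after transfection, and 48 hours for the pre-miR-27a arrays only. The study's methods give another concentration for RH36 and the same 24 hours for the check. Which concentration and time applied to these arrays was not settled. Both groups were the same line, so the values describe 1 cell line after a transient transfection, and the level of miR-27a itself was not read from these arrays. The labels call the arrays biological replicates without saying whether each was a separate transfection, so the p-values measure the spread between these arrays.

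Mitochondria carry their own ribosome, built from RNA encoded in the mitochondrial genome and from proteins that are all encoded in the nucleus, made in the cytoplasm and imported. Its large subunit joins amino acids into the peptide, and its small subunit holds and reads the mRNA. It makes only the few membrane-embedded subunits of the respiratory chain and of the ATP synthase that the mitochondrial genome encodes, so respiration depends on it. Many of its proteins descend from proteins of the bacterial ribosome, and others were added in the line that led to animals. Mature miR-27a acts on mRNAs through its seed, the bases near its 5′ end that pair with target sites. It is printed here because it is the agent that separated the groups. The sequence is RefSeq's (GRCh38.p14, chr19:13836447-13836467, minus strand), with the seed, bases 2 to 8, in capitals.
hsa-miR-27a-3p: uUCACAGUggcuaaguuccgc

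Of the 9 myogenic marker genes, 8 stood well above background on every array, as the scanner software judged each spot, and MYF5 on none. Probes for PTPRC and PECAM1, which mark blood and endothelial cells, were above background on none, whereas 1 of 2 KRT14 probes was above it on 6 arrays and 1 of 3 ALB probes on 5. Every pre-control array lay on 1 slide and every pre-miR-27a array on another, so slide and treatment cannot be told apart in any result below. The slides also differed in quality measures. Among 43376 non-control spots per array, 1559 to 1750 were not found on the pre-control arrays and 3487 to 4153 on the pre-miR-27a arrays, while 69.9 to 73.9% and 74.1 to 78% of spots were well above background. Each of the 107 MRP probes passed that criterion on every array, and none was saturated.

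More MRP probes were lower than higher after pre-miR-27a, and the differences were small. Of 107 probes, 85 were lower (79.4%, against 53.6% of all 36469 probes tested) and 22 were higher. The median log2 difference, pre-miR-27a minus pre-control, was -0.14 over the MRP probes and -0.02 over all probes, and the MRP values ran from -0.67 to 0.21. limma, fitted over all probes with Benjamini-Hochberg adjustment, called 6 MRP probes lower at an adjusted p under 0.05 and 0 higher. Over all probes 3.88% were called lower and 3.95% higher, and over the 27059 probes as clearly detected as the MRP probes 4.81% and 4.45%, so 6 of 107 lower is near the background. At an unadjusted p under 0.05, 30 MRP probes were lower and 1 was higher, where 13.2% and 11.6% of all probes were. Of the 27059 clearly detected probes, 4258 were lower and 3451 higher at that level. The arrays of the groups did not overlap for 43 MRP probes that were lower (17.8% of all probes) and for 3 that were higher (14.8% of all probes). Each of these MRP counts includes 1 MRPS30 probe with a missing pre-control array. The shares over all probes likewise include probes missing on 1 array, which separate more easily. Among the 27059 clearly detected probes, 5445 were lower and 4421 higher without overlap. Because RNA was pooled over each culture, fewer cells expressing a gene and less of its RNA per cell cannot be told apart.

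**Figure D1:**
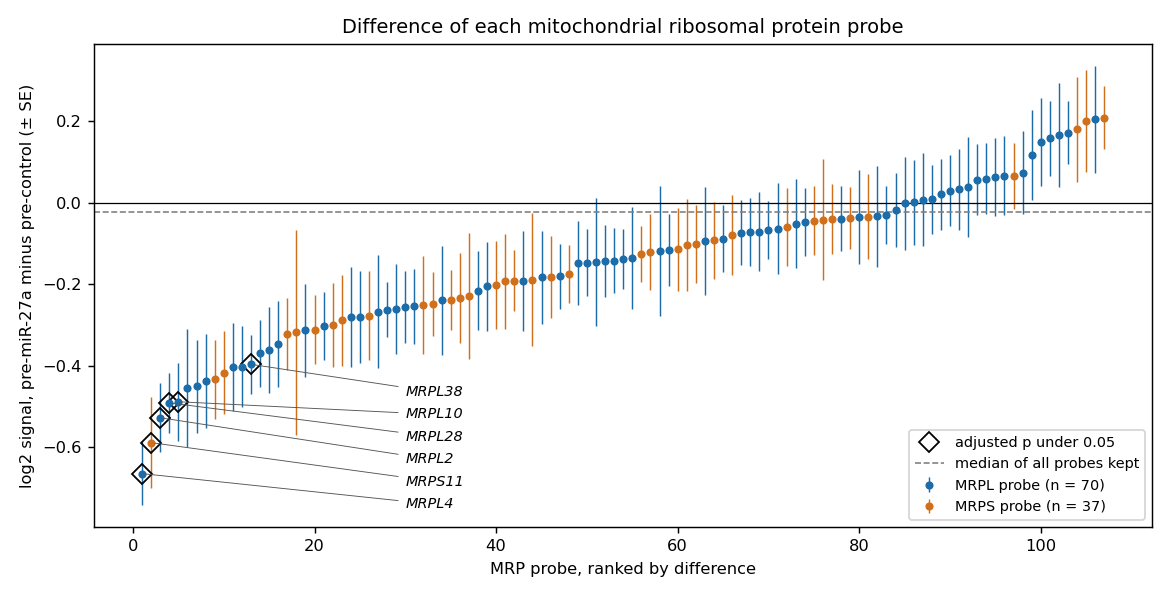
Log2 difference of each of the 107 MRP probes, pre-miR-27a minus pre-control (vertical axis, points with SE bars, 3 arrays per group), ranked from lowest to highest (horizontal axis), with MRPL probes in blue and MRPS probes in orange. The 85 probes below 0 include the 6 with an adjusted p under 0.05, in diamonds, and the dashed line is the median of all probes, -0.02.

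The 6 called probes belonged to MRPL4, MRPS11, MRPL2, MRPL28, MRPL10 and MRPL38. MRPL4, a homolog of the bacterial protein that lines the tunnel through which the new peptide leaves, had the lowest difference of all MRP probes. Its log2 signal was 12.22, 12.33 and 12.19 on pre-control arrays 1 to 3 and 11.61, 11.58 and 11.56 on pre-miR-27a arrays 1 to 3. The groups did not overlap, and the pre-miR-27a arrays lay within a narrower range. MRPL4 fell by 0.67 ± 0.08 (SE, n = 3 arrays per group) on the log2 scale, to 63% of the pre-control signal, with a limma adjusted p of 0.0181. Its single probe (hg18, chr19:10230301-10230360, plus strand) therefore carries the gene's value alone.

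MRPL28 is the homolog of a bacterial large-subunit protein and was also measured by 1 probe, which spans an intron (hg18, chr16:357747-358351, minus strand). Its log2 signal was 13.52, 13.54 and 13.49 on the pre-control arrays and 13.09, 13.01 and 12.97 on the pre-miR-27a arrays. Both groups were tight and lay apart on all arrays. MRPL28 fell by 0.49 ± 0.07 (SE, n = 3) on the log2 scale, with a limma adjusted p of 0.0246.

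MRPL2, whose bacterial counterpart lies close to the site of peptide bond formation, had 2 probes. The probe with the lower signal (hg18, chr6:43133836-43133895, minus strand) read 8.04, 8.16 and 8.14 on the pre-control arrays and 7.67, 7.59 and 7.50 on the pre-miR-27a arrays. All pre-miR-27a arrays were below all pre-control arrays, and this probe fell by 0.53 ± 0.09 (SE, n = 3; limma adjusted p 0.0274). The brighter probe (chr6:43130004-43130063) also separated the groups, but its difference of -0.35 ± 0.10 did not pass (limma adjusted p 0.111).

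MRPL10 forms the base of the stalk that recruits translation factors to the large subunit. Its called probe (hg18, chr17:43256321-43256380, minus strand) read 11.53, 11.33 and 11.53 on the pre-control arrays and 11.01, 11.03 and 10.88 on the pre-miR-27a arrays. The 2nd pre-control array lay nearest to the treated ones, yet the groups did not overlap. The probe fell by 0.49 ± 0.10 (SE, n = 3; limma adjusted p 0.0406), and the call was lost when the replicate number was fitted as a block (adjusted p 0.053). The brighter MRPL10 probe differed by -0.27 ± 0.14 and did not pass (limma adjusted p 0.305). MRPL12, the stalk protein that MRPL10 holds, differed by -0.14 ± 0.08 and did not pass either (limma adjusted p 0.344).

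MRPL38 belongs to the proteins that the mitochondrial ribosome gained after it left its bacterial ancestor, and sits in the central protuberance of the large subunit. The called probe (hg18, chr17:71408883-71408942, minus strand) read 11.55, 11.54 and 11.50 on the pre-control arrays and 11.19, 11.12 and 11.09 on the pre-miR-27a arrays, so the groups stood well apart. It fell by 0.40 ± 0.07 (SE, n = 3; limma adjusted p 0.0357). The brighter probe of the gene (chr17:71406326-71406385) differed by only -0.14 ± 0.07 and did not pass (limma adjusted p 0.314).

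MRPS11, a small-subunit protein of the platform next to the exit of the mRNA, was the only MRPS gene called. Its called probe (hg18, chr15:86816901-86816960, plus strand) read 10.73, 10.97 and 10.74 on the pre-control arrays and 10.09, 10.34 and 10.23 on the pre-miR-27a arrays. The 2nd array was the highest of each group, and the groups did not overlap. This probe fell by 0.59 ± 0.11 (SE, n = 3; limma adjusted p 0.0382). The brightest of the 3 MRPS11 probes (chr15:86822318-86822377) differed by -0.42 ± 0.10 (limma adjusted p 0.0681, and 0.0394 with the replicate block), and the dimmest (chr15:86812900-86812959) by -0.18 ± 0.07 (limma adjusted p 0.205).

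**Figure D2:**
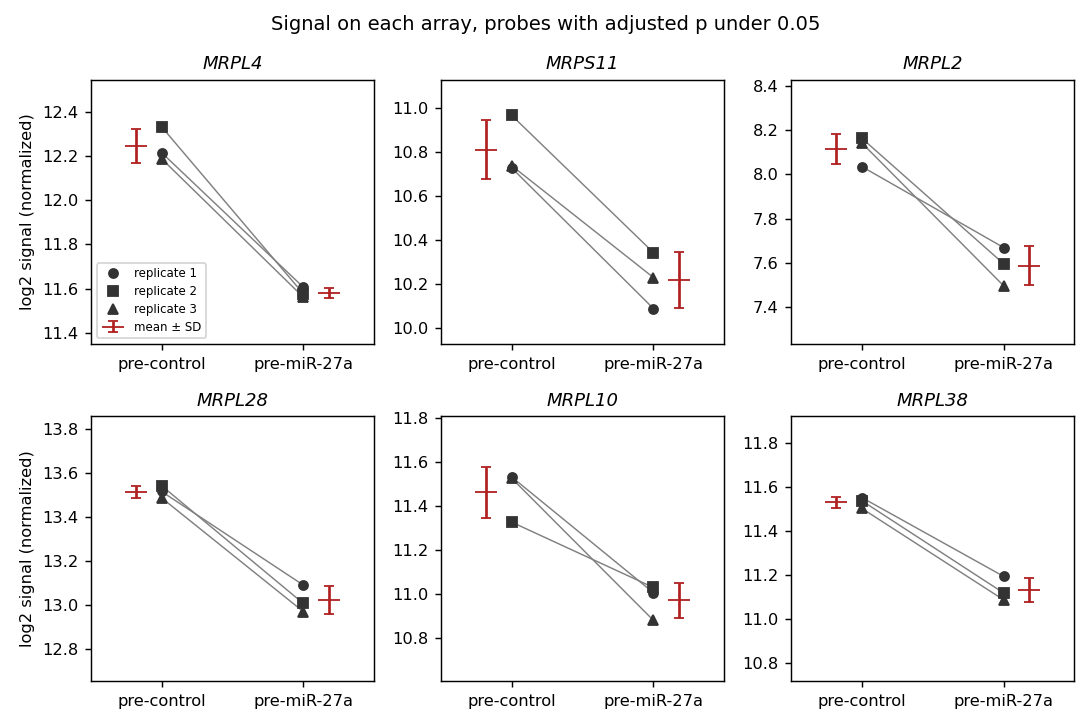
Normalized log2 signal on each of the 6 arrays (vertical axes, each spanning the same width) for the 6 probes with a limma adjusted p under 0.05, with grey lines joining arrays of the same replicate number and red bars for mean ± SD. In no panel do the groups overlap, so every line goes down.

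These 6 calls were not stable when arrays were removed. Without pre-control array 1, 2 or 3 the number of MRP probes called lower was 2, 0 and 1, and without pre-miR-27a array 1, 2 or 3 it was 0 each time, while 20 to 28 MRP probes were still lower at an unadjusted p under 0.05. Over the arrays left out, the limma adjusted p of MRPL4 ran from 0.0348 to 0.0701 and its difference from -0.69 to -0.62. In each of these fits 78 to 89 MRP probes were lower. The 4 fits with no MRP call, those without pre-control array 2 or any 1 pre-miR-27a array, called 0 probes over the whole array by limma, with 6745 to 7196 at an unadjusted p under 0.05, so every call made without the replicate block was lost there. The blocked fit was not run with arrays left out. An exact permutation test of any single probe (two-sided) cannot go below p = 0.1 with 3 arrays against 3, which is the value for each of the 6.

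Arrays with the same replicate number deviated together from their group means, so differences within the 3 pairs were also examined. Of the 105 MRP probes with a value on all 6 arrays, 64 were lower in all 3 pairs (61%, against 33.6% of all probes) and 10 were higher in all 3 (9.52%, against 29.4%). Among probes well above background on all 6 arrays, these shares were 37.6% and 31.5%. The median MRP difference was -0.14 in pair 1, -0.18 in pair 2 and -0.09 in pair 3, where the median of all probes was -0.03, -0.02 and -0.002. In those pairs 78, 86 and 79 of the MRP probes were lower. All 6 called probes were lower in all 3 pairs, which follows from their groups not overlapping and adds no further evidence.

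**Figure D3:**
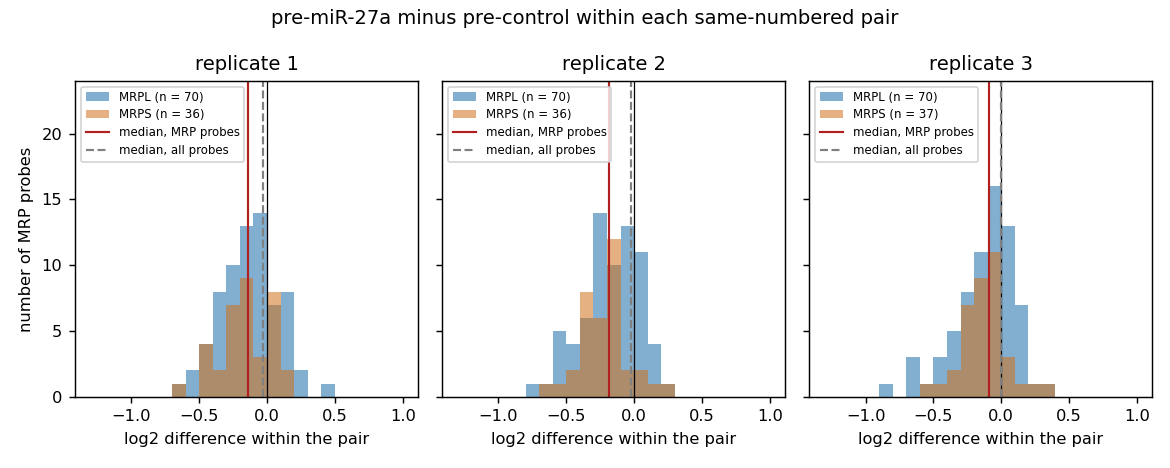
Number of MRP probes (vertical axis) by log2 difference within each same-numbered pair of arrays (horizontal axis, pre-miR-27a minus pre-control), with MRPL in blue, MRPS in orange and their overlap in brown. The red line, the median of the MRP probes, lies left of the dashed line, the median of all probes, in all 3 pairs, and is nearest to it in pair 3.

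With the replicate number as a block, 11 MRP probes in 10 genes were called lower and 0 higher, where 7.62% and 7.24% of all probes were. Of the 27059 clearly detected probes, 2563 were called lower and 2266 higher with the block. The block kept 5 of the 6 probes and added MRPL36, a 2nd probe of MRPS11, MRPL53, MRPL33, MRPL44 and MRPS23. MRPL36, homolog of a very small bacterial large-subunit protein, read 12.96, 13.21 and 13.07 on the pre-control arrays and 12.46, 12.74 and 12.68 on the pre-miR-27a arrays. Arrays numbered 1 were the lowest of each group, and the pair differences were -0.50, -0.47 and -0.38 (limma adjusted p 0.0747, and 0.0357 with the block). MRPL33, another small homolog of a bacterial protein, had pair differences of -0.34, -0.38 and -0.39 on its brighter probe (limma adjusted p 0.0539, and 0.0375 with the block). Its 2nd probe, which spans an intron, had pair differences of -0.33, -0.26 and -0.25 and did not pass in either fit.

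The remaining genes called only with the block are proteins that bacteria lack. MRPL44, which carries a fold related to RNase III, differed by -0.36 ± 0.11 (limma adjusted p 0.105, and 0.0471 with the block). MRPL53 differed by -0.40 ± 0.11 on its dimmer probe (limma adjusted p 0.0854, and 0.0466 with the block) and by -0.14 ± 0.09 on its brighter one. MRPS23, a small-subunit protein, differed by -0.30 ± 0.10 (limma adjusted p 0.149, and 0.049 with the block), with pair differences between -0.35 and -0.27.

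Large-subunit and small-subunit names were both mostly lower. Among MRPL probes 52 of 70 were lower, with a median of -0.13 and 5 calls. Among MRPS probes, which include MRPS18A, MRPS30 and MRPS36, 33 of 37 were lower, with a median of -0.18 and 1 call. Over all probes 3.88% were called lower, and over the clearly detected ones 4.81%. The 64 probes of genes with a bacterial homolog had 51 lower and a median of -0.14. The 39 probes of genes classed as specific to mitochondria had 31 lower and the same median. That class holds MRPS18B, although the MRPS18 paralogs described below replaced a bacterial protein. MRPS18A, MRPS30 and MRPS36, described below, were placed in neither class. With 1 probe per gene, the one with the highest mean signal, 62 of 76 genes were lower, 2 were called (MRPL4 and MRPL28), and the median was -0.13. The difference between the subunits was not tested.

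Besides MRPS11, the small-subunit genes with the lowest differences on their brightest probe were MRPS33 and MRPS26, both specific to mitochondria. MRPS33 read 12.38, 12.47 and 12.42 on the pre-control arrays and 11.98, 12.12 and 12.20 on the pre-miR-27a arrays, without overlap, and differed by -0.32 ± 0.09 (limma adjusted p 0.0879). MRPS26 read 14.97, 15.13 and 14.95 against 14.73, 14.73 and 14.65, again without overlap, and differed by -0.31 ± 0.08 (limma adjusted p 0.086). Neither passed under any alternative tried, except MRPS26 in a limma fit with a variance trend and robust estimation (adjusted p 0.0432).

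A pair of genes carries an S in its name although the protein sits in the large subunit, namely MRPS18A and MRPS30. MRPS18A is one of 3 paralogs that replaced a single bacterial protein, and the others, MRPS18B and MRPS18C, are in the small subunit. The 3 paralogs differed by -0.23 ± 0.11 (MRPS18A), -0.19 ± 0.12 (MRPS18B) and -0.28 ± 0.11 (MRPS18C), with limma adjusted p of 0.263, 0.374 and 0.197. None was called, and only MRPS18B had overlapping groups. MRPS30 had 2 probes with 1 missing pre-control array each, so both values rest on 5 arrays. The brighter differed by -0.18 ± 0.10 and the dimmer by 0.20 ± 0.12, and neither passed (limma adjusted p 0.348 and 0.401). MRPS36, now named KGD4 because the protein belongs to the 2-oxoglutarate dehydrogenase complex rather than to the ribosome, differed by -0.04 ± 0.15.

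Among the 22 higher probes none passed. MRPS5, homolog of a bacterial protein at the mRNA entry of the small subunit, had the largest difference. It read 12.62, 12.70 and 12.59 on the pre-control arrays and 12.81, 12.92 and 12.82 on the pre-miR-27a arrays, without overlap, and was higher in all 3 pairs. Its difference was 0.21 ± 0.08 (limma adjusted p 0.172), and it was the one higher MRP probe with an unadjusted p under 0.05. The only other MRPS gene that was higher on its brightest probe, MRPS35, differed by 0.07 ± 0.08 (limma adjusted p 0.672) and turned to -0.053 when arrays were scaled by their 75th percentile and to -0.011 with another background correction.

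The MRPL genes with the largest positive differences were MRPL19, MRPL35 and MRPL45. MRPL19 differed by 0.21 ± 0.13, and its first pre-control array (13.63) lay below the others (14.05 and 13.98), so that the difference was 0.40 in pair 1 and 0.10 and 0.12 in pairs 2 and 3. MRPL35 differed by 0.17 ± 0.08 without overlap on its brightest probe, while its other probes differed by 0.06 and -0.06. MRPL45, which anchors the ribosome to the inner mitochondrial membrane, differed by 0.16 ± 0.09 and 0.01 ± 0.09 on its 2 probes, and was the only gene with several probes that was higher on all of them. The limma adjusted p values of these 3 genes, on the brightest probe, were 0.4, 0.242 and 0.357.

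The probes of 1 gene did not always give the same size of difference. Of 24 genes with 2 to 4 probes, 15 were lower on all probes, 1 was higher on all and 8 had both signs. For MRPS11, MRPL2, MRPL10 and MRPL38 the called probe was not the brightest one. The following genes were picked for their probes after the values were seen, and none of their probes passed with or without the block. Both MRPS21 probes lie on the same bases (hg18, chr1:148547208-148547267) and differed by -0.25 and -0.24. Both MRPS12 probes lie close together (chr19:44115278-44115336 and chr19:44115409-44115468), yet one differed by -0.43 ± 0.10 (limma adjusted p 0.0548) and the other, brighter one by -0.03 ± 0.10. The 4 probes of MRPL43 differed by -0.46, -0.30, -0.26 and -0.03, the last on the brightest, and the overlapping MRPL55 probes by -0.44 and -0.28.

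**Figure D4:**
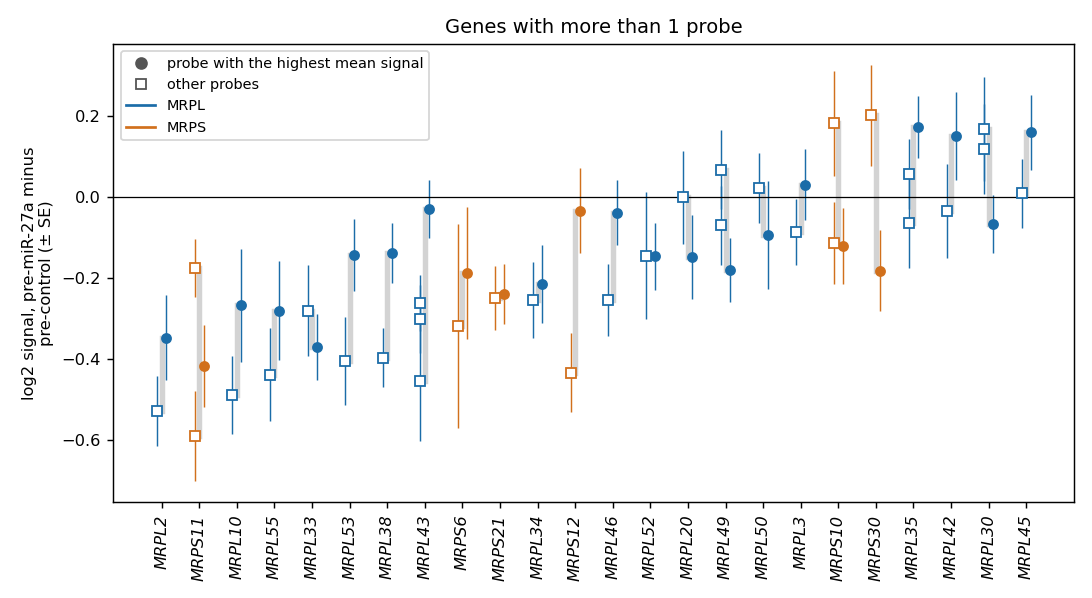
Log2 difference, pre-miR-27a minus pre-control (vertical axis, with SE bars), for each probe of the 24 MRP genes with more than 1 probe (horizontal axis, ordered by mean difference), with a filled circle for the probe of highest mean signal, open squares for the others and a grey bar for the range. The bars are longest for MRPL43, MRPS11, MRPS12 and MRPS30, and the 2 MRPS21 probes nearly coincide.

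Signal strength was examined because most MRP probes are bright. In the class with a mean log2 signal of 12 to 14, 44 of 50 MRP probes were lower with a median of -0.16, against a median of -0.01 over all probes of that class that were well above background. Between 10 and 12 the counts were 13 of 17 with a median of -0.18, against -0.03. Above 14 they were 23 of 30 with a median of -0.09, against -0.02. Of the 10 MRP probes below 10, 5 were lower, and their median of -0.03 was near that of all such probes, -0.04.

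The 76 genes lie on 21 chromosomes. RefSeq start sites (GRCh38.p14) gave promoter windows, 250 bases before to 50 after the start, for 68 of the genes (84 windows), and MRPL2 and MRPL10, both called, were among the 8 without one. The motifs searched on both strands were the cores bound by NRF1 (GCGCANGCG), by ETS factors such as GABP (CCGGAAG) and by YY1 (AAGATGGCG), which are known regulators of nuclear genes for mitochondria. The ETS core was in 38.1% of MRP windows and in 12.8% of the windows of protein-coding genes (10.3% of all windows). The YY1 core was in 15.5% and 2.41% (1.75% of all), and the NRF1 core in 16.7% and 9.64% (7.52% of all). These shares describe the sequences and were not tested.

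Upstream sequences are shown for 3 called genes and for MRPL36, called with the block. They are examples and do not stand for all genes with lower signal. Each is the 250 bases before the start, in the direction of the gene, with matches to the motifs on either strand in capitals. MRPL4 (chr19:10251701-10251950, plus strand, the first of 2 windows) and MRPL28 (chr16:370539-370788, minus strand) held no match. MRPL38 (chr17:75904885-75905134, minus strand) held an ETS core that begins at -208 from the start site. MRPL36 (chr5:1799838-1800087, minus strand) held an NRF1 core at -109 and a YY1 core at -36. Among the called genes not shown, MRPL33, MRPL53 and MRPS23 held an ETS core in this stretch, MRPL44 an NRF1 core and MRPS11 no match.
MRPL4: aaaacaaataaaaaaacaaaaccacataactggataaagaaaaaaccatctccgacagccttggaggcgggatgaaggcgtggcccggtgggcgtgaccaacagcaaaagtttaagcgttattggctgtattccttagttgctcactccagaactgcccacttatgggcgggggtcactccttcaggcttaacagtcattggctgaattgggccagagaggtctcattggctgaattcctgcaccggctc
MRPL28: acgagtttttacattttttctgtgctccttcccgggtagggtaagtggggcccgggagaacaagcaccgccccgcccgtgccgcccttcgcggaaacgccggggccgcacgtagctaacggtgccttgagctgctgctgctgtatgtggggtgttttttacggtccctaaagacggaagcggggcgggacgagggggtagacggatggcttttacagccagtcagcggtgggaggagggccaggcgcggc
MRPL38: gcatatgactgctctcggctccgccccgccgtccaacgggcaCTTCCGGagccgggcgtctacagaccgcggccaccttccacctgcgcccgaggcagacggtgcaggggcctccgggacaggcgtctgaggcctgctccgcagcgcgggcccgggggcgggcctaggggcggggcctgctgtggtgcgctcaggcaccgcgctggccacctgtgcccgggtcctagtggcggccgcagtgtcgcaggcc
MRPL36: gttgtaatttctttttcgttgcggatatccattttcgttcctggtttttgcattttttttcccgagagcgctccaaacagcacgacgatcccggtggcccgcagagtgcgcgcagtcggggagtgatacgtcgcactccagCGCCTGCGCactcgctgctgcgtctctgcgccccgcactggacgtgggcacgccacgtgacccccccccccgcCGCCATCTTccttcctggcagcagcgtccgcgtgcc

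The difference between genes with and without a motif was not tested. On the brightest probe the median log2 difference was -0.14 for the 29 genes with an ETS core and -0.12 for the 39 without, -0.12 for the 13 with a YY1 core and -0.14 for the 55 without, and -0.19 for the 13 with an NRF1 core and -0.12 for the 55 without. MRPS11 and MRPL46, a large-subunit gene, are read in opposite directions from start sites whose windows overlap (chr15:88467339-88467757 covers both). The MRPL46 probes differed by -0.26 ± 0.09 and, on the brighter one, by -0.04 ± 0.08, and neither passed, while the 3 MRPS11 probes differed by -0.59, -0.42 and -0.18.

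Other proteins and factors of mitochondrial translation were read from lists and described beside the MRP genes. Over all probes 3.88% were called lower and 3.95% higher. The 7 ribosomal genes whose names fall outside the rule, such as DAP3 and AURKAIP1, had 8 tested probes, of which 6 were lower with a median of -0.16. None was called, and AURKAIP1 differed by -0.33 ± 0.10 (limma adjusted p 0.103, and 0.0454 with the block). Factors that initiate, elongate and end mitochondrial translation, with others that process or deliver its mRNAs and products, had 23 probes with a median of 0.02. In that list MTRF1, a release factor homolog, rose by 0.43 ± 0.09 (limma adjusted p 0.0414) on a dimmer probe, while its brightest differed by -0.05 ± 0.10, and 0 probes of the list were called lower. Differences in the list ran from -0.68 to 0.43. With the replicate block 3 of its probes were called lower and 3 higher, where 7.62% and 7.24% of all probes were. The mitochondrial aminoacyl-tRNA synthetases, which load tRNAs, had 20 probes with a median of -0.01 and no call. With the block 1 of these was called lower and 0 higher.

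Factors that assemble the ribosome had 31 probes with a median of -0.13. Of these, 3 were called higher and 1 lower, where 3.95% and 3.88% of all probes were. GTPBP5, a GTPase acting on the large subunit, rose by 0.65 ± 0.11 and 0.51 ± 0.10 on 2 of its 3 probes (limma adjusted p 0.0309 and 0.0421), and the third differed by 0.00 ± 0.08. MTERFD1, which also acts in mitochondrial transcription, rose by 0.35 ± 0.07 on 1 of its 2 probes (limma adjusted p 0.0408) and differed by 0.18 ± 0.08 on the other (limma adjusted p 0.223). MRM1, which methylates the large ribosomal RNA, fell by 0.40 ± 0.08 (limma adjusted p 0.0443). Genes for transcription and upkeep of the mitochondrial genome had 21 probes, a median of -0.07 and no call. POLRMT, the mitochondrial RNA polymerase, differed by -0.43 ± 0.10 on the dimmer of its 2 probes (limma adjusted p 0.055, and 0.0369 with the block).

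Regulators of mitochondrial biogenesis had calls in both directions. Of 14 probes, 3 were called higher and 1 lower, where 3.95% and 3.88% of all probes were. PPARGC1A, the coactivator known as PGC-1 alpha, rose by 1.17 ± 0.11 on a dim probe (limma adjusted p 0.0181), but its brightest probe differed by 0.05 ± 0.12. YY1, one of the factors whose core was searched, rose by 0.63 ± 0.07 (limma adjusted p 0.0184). Of the GABP genes, GABPB2 rose by 0.52 ± 0.11 on its brightest probe (limma adjusted p 0.0458), while its other probes differed by -0.35 and -0.05. The GABPA probe differed by 0.34 ± 0.12 (limma adjusted p 0.171, and 0.0484 with the block). MYC, a broad activator of ribosome genes, fell by 1.07 ± 0.11 on 1 probe (limma adjusted p 0.0195), whereas its brightest probe differed by -0.09 ± 0.17. The NRF1 probe differed by -0.02 ± 0.11.

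The proteins of the cytoplasmic ribosome, which translates the nuclear mRNAs, gave 206 tested probes for 86 genes. Of these 122 were lower (59.2%), with a median of -0.04, 7 were called lower and 0 higher, where 3.88% and 3.95% of all probes were. The largest called differences were in RPS2 and RPL18, which fell by 0.51 ± 0.10 and 0.50 ± 0.07 (limma adjusted p 0.0381 and 0.0224). The brightest probe differed by 0.03 ± 0.07 for RPS2 and by -0.15 ± 0.08 for RPL18, and neither passed, and the 4 other RPS2 probes ran from -0.07 to 0.23. The brightest RPS2 probe had the same normalized log2 signal, 18.1, on every pre-miR-27a array (SD 0). Quantile normalization sets values by rank, so this probe may be unable to show a difference. Many cytoplasmic ribosomal protein genes have processed copies elsewhere in the genome whose RNA the probes may also bind, so their values are uncertain. The difference between the 2 ribosomes was not tested.

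**Figure D5:**
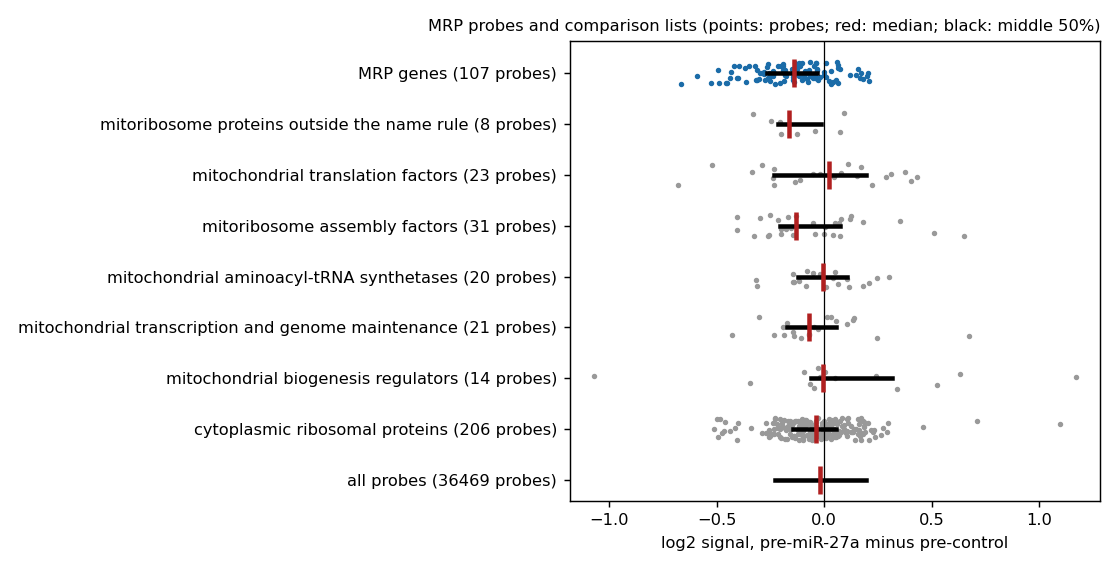
Log2 difference, pre-miR-27a minus pre-control (horizontal axis), of the MRP probes (blue points), of the comparison lists (grey points) and of all probes (summary only), with a red mark for the median and a black bar for the middle 50%. The medians of the MRP genes, of the ribosomal proteins outside the name rule and of the assembly factors lie at -0.14, -0.16 and -0.13, and that of the cytoplasmic ribosomal proteins at -0.04.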

How the data were processed

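RNA of RH36 cells was hybridized to 6 one-colour (Cy3) arrays, 3 per group, with groups taken from the labels. The authors deposited, per spot, the processed signal intensity of Feature Extraction 10.5.1.1, background-subtracted within each array. A table of log2 values deposited beside it differed from those computed here by a median of 0.00401 and, for MRP probes, by at most 0.0453. All their columns were mapped (0 left unused).

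Non-control spots were quantile normalized on the log2 scale as in the study's methods, spots not found were set to missing, and probes missing on more than 1 array were removed, leaving 36469. limma 3.58.1 (R 4.3.3 with data.table, version 1.17.8) compared the groups over all probes, adjusting by Benjamini-Hochberg and calling at 0.05. The number of arrays limits the precision. Probe positions are those of the array's annotation (hg18). Promoters and miR-27a came from RefSeq (GRCh38.p14). The fit without the replicate block was tested on simulated arrays with independent noise. That simulation held neither the correlation between same-numbered arrays nor a slide difference.

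The replicate numbers come from the labels. Deviations from the group means correlated at 0.396, 0.456 and 0.409 between same-numbered arrays and at -0.266 to -0.123 otherwise, over 31717 probes, and replicate numbers were treated as pairs. Alternatives were scaling by the 75th percentile, background correction by normexp (offset 50), other filters, the deposited log2 values, a replicate block, a variance trend with robust estimation, 1 probe per gene, and each array left out. A filter on positive and significant signals was added after the data were seen.

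The members and lists were chosen with earlier results of these data known. Genes were named if called with or without the block, if among the 3 largest differences per direction and subunit on the brightest probe, or if MRPS18 paralogs, and in each list for the 2 largest called differences per direction. Further genes are marked in the text where chosen later. AURKAIP1, POLRMT, MRPL12, MRPL46, MRPS30, MRPS36, GABPA, GABPB2 and the NRF1 gene were named for their role. 1 marker gene of another lineage is not reported here.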

Additional observations from a re-analysis of the deposited data

How the results depend on the processing

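No MRP probe was called higher under any of the alternatives. The number called lower, 6, was 11 with normexp background correction, 11 with the replicate block, 12 with a variance trend and robust estimation, and 2 with 1 probe per gene. Over all probes, the number called lower was 1416 and rose as well, to 1733 with normexp, 2780 with the block and 1715 with the variance trend. With 1 array left out it ranged from 0 to 2. It was 6 with 75th percentile scaling, with no filter, with the added filter and with the deposited values, and 8 when probes had to stand well above background on at least 3 arrays. The median difference, -0.14, became -0.22 with 75th percentile scaling, where that of all probes was -0.09, and otherwise lay between -0.15 and -0.11. The number of probes higher in all 3 pairs, 10, became 6 with 75th percentile scaling. MRPS35, at 0.07, turned to -0.053 (adjusted p 0.731) with that scaling and to -0.011 (adjusted p 0.954) with normexp. For the fits of the 22 MRP probes named by the rule, 259 kept their direction and side of the threshold, 34 lost a call and 13 gained one. The causes of these changes were not tested.

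With 3 arrays per group on 1 slide each, slide and treatment cannot be told apart, and small differences could not be called one by one.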
